A study of Mus musculus with 2 samples.

Results

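Complement genes were followed through the immune cells of B16-F10 melanoma. The genes were the 3 chains of C1q (C1qa, C1qb and C1qc), C3, factor B (Cfb), properdin (Cfp) and the receptors C3ar1 and C5ar1. These 8 symbols were looked up among the 31253 genes listed in the deposited count tables, and all 8 were present. B16-F10 is a melanoma cell line of C57BL/6 origin. The study injected 200000 of these cells under the skin of C57BL/6 mice, either Irg1+/+ or Irg1-/- (on the C57BL/6J background by the study's methods), and took 100 mm3 of each tumour on day 10. Irg1, listed in the files as Acod1, encodes the enzyme that makes itaconate, and the study asked how its loss changes the immune cells of the tumour. Pieces from 3 mice of a genotype were combined, Cd45+ cells were sorted, and each genotype gave 1 library on the BD Rhapsody microwell system. The knockout was carried by the whole mouse, whereas the injected tumour cells were the same line in both groups. By the study's methods for tumours of this kind the mice were young adult females.

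The Irg1+/+ library held 6408 cell barcodes with 43617546 UMIs (unique molecular identifiers, each counting 1 captured RNA molecule), and the library labelled Irg1-/- held 5896 barcodes with 36432067 UMIs. After cells with 10% or more mitochondrial UMIs were left out, 6284 and 5794 cells remained, with medians of 4528 and 4594.5 UMIs. The labels give 6000 sorted cells per sample, fewer than the barcodes of the Irg1+/+ library. Of the barcodes, 36 occurred in both libraries. Since each genotype is 1 library of pooled tumours, no difference between genotypes has a replicate and none was tested. Levels are given as CPM, the UMIs of a gene per 1000000 UMIs of a class of cells, with exact Poisson 95% intervals, and differences as log2 ratios of the library labelled Irg1-/- over the Irg1+/+ library with exact 95% intervals. These intervals cover counting error only, not the spread between mice.

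Complement is a cascade of plasma and tissue proteins that tags cells and particles for removal and attracts leukocytes. C1q, built from A, B and C chains, binds immune complexes and dying cells and starts the classical pathway. C3 is the protein on which all the pathways meet, factor B and properdin form and stabilise the enzyme of the alternative pathway that cleaves it, and C3ar1 and C5ar1 are the receptors of the fragments C3a and C5a. Liver is the main source of most plasma complement, while C1q is known to come largely from macrophages and other myeloid cells in tissue.

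All 8 genes lie on the minus strand of the GRCm38 genome (GENCODE M21). C1qa (chr4:136895917-136898803), C1qc (chr4:136889804-136893065) and C1qb (chr4:136880129-136886187) sit next to each other within 18675 bases of chromosome 4. C3 lies at chr17:57203970-57228136, Cfb at chr17:34856374-34862518, Cfp at chrX:20925454-20931555, C3ar1 at chr6:122847138-122856161 and C5ar1 at chr7:16246743-16259540. The 250 bases before the RefSeq start of C1qb, C3 and Cfp (RefSeq, GRCm38.p6) are shown because these genes were highest, among classes with at least 50 cells, in macrophage-like, monocyte-like and type 2 dendritic cell-like cells, respectively. They are read 5′ to 3′ along the gene, from chr4:136886201-136886450, chr17:57228137-57228386 and chrX:20931556-20931805, and capitals mark letters of a searched motif on either strand.
C1qb: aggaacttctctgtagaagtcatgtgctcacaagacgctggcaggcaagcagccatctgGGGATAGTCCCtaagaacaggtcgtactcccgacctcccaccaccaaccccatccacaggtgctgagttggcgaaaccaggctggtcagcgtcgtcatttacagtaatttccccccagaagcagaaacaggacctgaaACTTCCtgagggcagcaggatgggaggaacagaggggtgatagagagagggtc
C3: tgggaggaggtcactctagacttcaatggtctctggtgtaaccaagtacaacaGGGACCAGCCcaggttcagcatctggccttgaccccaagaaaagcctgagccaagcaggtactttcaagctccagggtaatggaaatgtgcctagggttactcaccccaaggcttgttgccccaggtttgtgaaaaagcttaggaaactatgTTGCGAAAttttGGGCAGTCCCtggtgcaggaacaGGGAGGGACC
Cfp: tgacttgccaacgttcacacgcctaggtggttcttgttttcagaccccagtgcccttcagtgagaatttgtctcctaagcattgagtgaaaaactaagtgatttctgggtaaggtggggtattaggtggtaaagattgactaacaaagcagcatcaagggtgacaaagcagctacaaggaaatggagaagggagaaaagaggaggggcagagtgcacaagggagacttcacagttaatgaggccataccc
Searched letters were GAGGAAGT (PU.1/ETS), GGAAGT (the ETS core, which the first contains), a pair of GAAA with any 2 bases between (interferon-stimulated element), TTCNNNGAA (STAT), TTGCNNAA (C/EBP), GGGA and CC with any 4 bases between (NF-kB) and TGACTCA (Maf/AP-1), each on both strands. In the C1qb window were 1 ETS core, present in 19.7% of the 32851 windows of this length in the RefSeq table, and 2 overlapping NF-kB matches in 1 stretch. The C3 window held 3 NF-kB matches and 1 C/EBP match. NF-kB letters were in 17.6% of all such windows and C/EBP letters in 9.56%. The Cfp window held none of the 7 motifs. A match is a run of letters and was not shown to be a binding site.

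Cells were assigned to classes by marker genes, none of them a complement gene, and are called by the class name with "-like". Macrophage-like cells (markers such as Apoe, Ms4a7, Mrc1, Trem2, Pf4 and Adgre1) numbered 739 in the Irg1+/+ library and 613 in the library labelled Irg1-/-, and monocyte-like cells (Ly6c2, Vcan, Chil3, Plac8, Ccr2, Hp and Ifitm6) numbered 591 and 760. Of the 10 genes leading the macrophage-like class by fold over the other cells, those outside the markers were Ccl8, Igf1, Stab1, Cbr2, Ccl12 and Vcam1, and Stab1 and Cbr2 are known from tissue macrophages. Of those leading the monocyte-like class, Vcan, Chil3, Hp and Ifitm6 were markers of the gate, and the others included Cd177, Mgst1 and Plcb1. Of the macrophage-like cells 70 and 62, and of the monocyte-like cells 66 and 76, lay within 0.1 of a limit of the gate. A small class passed both gates (56 and 105 cells). In all, 12 classes had at least 50 cells in each library. B, NK and T cell-like cells together (1700 and 1513 cells) served as a measure of free RNA, since lymphocytes are not known to make C1q. Their medians were 3667.5 and 2907 UMIs per cell, against 9269 and 8419 in macrophage-like and 5190 and 5208.5 in monocyte-like cells.

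The targeted gene was not depleted in the library labelled Irg1-/-. Acod1 was at 87.8 and 108 CPM over all kept cells of the Irg1+/+ library and the library labelled Irg1-/-. In macrophage-like cells it was at 83.4 and 133 CPM, in monocyte-like cells at 160.01 and 124 CPM and in neutrophil-like cells, its highest class, at 1963 and 1584 CPM. Which part of the gene the deletion removes was not given in the sources used here, and UMIs mark the 3′ end of a transcript, so transcript left by the deleted allele cannot be told apart from intact transcript. Directions below are therefore given for the library labelled Irg1-/-.

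All 3 chains of C1q were highest in macrophage-like cells in both libraries. C1qa, the A chain, was there at 1101 CPM (95% interval 1079.5 to 1123) in the Irg1+/+ library and, in the one labelled Irg1-/-, at 1013 CPM (988 to 1039). C1qb, the B chain, was there at 2860.2 CPM (95% interval 2825 to 2896) in the Irg1+/+ library and, in the one labelled Irg1-/-, at 3043 CPM (2999 to 3087). C1qc, the C chain, was there at 2350.2 CPM (95% interval 2318 to 2382) in the Irg1+/+ library and, in the one labelled Irg1-/-, at 2073 CPM (2037 to 2109.9). No other of the 12 classes had an interval that reached these levels. The macrophage-like level exceeded that of lymphoid cells of the same library 12.1- and 10.0-fold for C1qa, 8.67- and 7.78-fold for C1qb and 10.7- and 10.4-fold for C1qc. Of these 12 classes the mixed class came next for all 3 chains, with C1qa at 314 and 354 CPM. The 13 and 14 endothelial-like cells had C1qa at 647 and 213 CPM, from 77 and 25 UMIs. Macrophage-like cells held 61.4% and 51.1% of all C1qa UMIs of their library.

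Monocyte-like cells stood far closer to the lymphoid than to the macrophage-like level. Their C1qa level was 101 and 118 CPM, against 90.7 and 101 CPM in lymphoid cells, a log2 ratio of 0.16 (-0.033 to 0.34) in Irg1+/+ cells, where the interval includes 0, and of 0.23 (0.068 to 0.39) in cells labelled Irg1-/-. C1qb was at 406 and 545 CPM against 329.96 and 391 CPM, and C1qc at 258 and 266 CPM against 219.7 and 199 CPM. Both were above the lymphoid level beyond counting error in either library, with log2 ratios of 0.30 (0.21 to 0.39) and 0.48 (0.40 to 0.56) for C1qb and of 0.23 (0.11 to 0.35) and 0.42 (0.30 to 0.53) for C1qc. When each cell was thinned to 2000 UMIs, a C1qa UMI was found in 63.8% of macrophage-like cells of the Irg1+/+ library (95% interval 60.0 to 67.6; 80.5% before thinning), in 16.6% of monocyte-like cells (13.6 to 19.9; 35.2% before) and in 15.3% of lymphoid cells (13.4 to 17.2; 33.1% before). In the library labelled Irg1-/- the thinned shares were 63.8%, 19.0% and 15.9% (before thinning 79.4%, 37.2% and 29.9%). Thinning left out 100 and 64 macrophage-like, 36 and 56 monocyte-like and 271 and 333 lymphoid cells with fewer UMIs. The intervals of monocyte-like cells (16.2 to 22.1) and lymphoid cells (13.9 to 18.1) overlapped there too, so that C1qa in monocyte-like cells was not told apart from background by this share. Per cell and 2000 UMIs, the median number of UMIs of the 3 chains together was 9 and 10 in macrophage-like cells and 1 in both monocyte-like and lymphoid cells of either library.

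Dendritic and granulocyte classes had C1q levels far below those of macrophage-like cells. Type 1 dendritic cell-like cells had C1qa at 149 and 129.5 CPM and type 2 dendritic cell-like cells at 95.9 and 124 CPM. Neutrophil-like cells, with medians of 1700 and 1889 UMIs, had C1qa at 285 CPM (209 to 379) and 167 CPM (132 to 210.3), from 47 and 74 UMIs. Eosinophil-like cells, shallower still (857.5 and 1064 UMIs), had C1qb at 830.1 and 1019 CPM. The part of free RNA in these shallow cells was not tested.

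**Figure D1:**
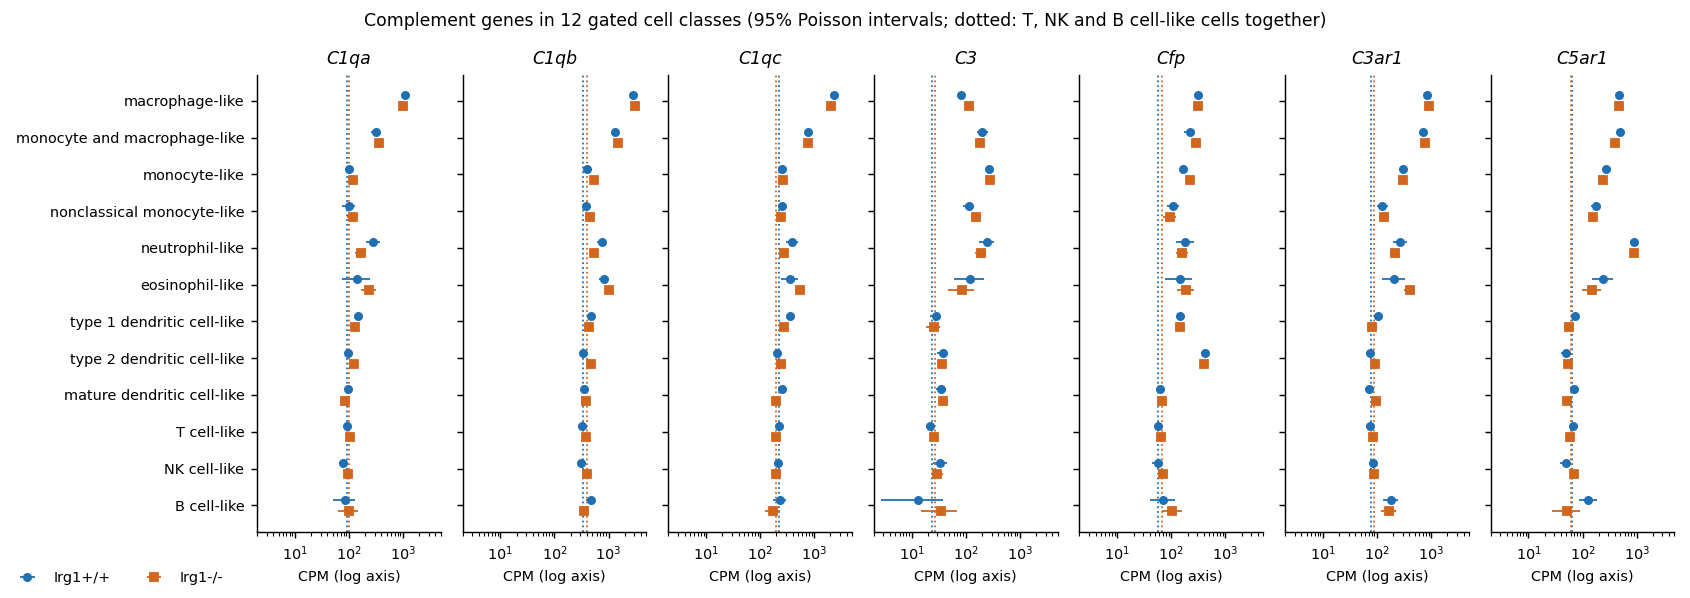
Each panel plots 1 gene, with its CPM on a log axis, in the 12 gated classes with at least 50 cells per library. Points are the Irg1+/+ library (circles) and the library labelled Irg1-/- (squares), bars are exact Poisson 95% intervals and dotted lines mark the level in lymphoid cells. The C1q chains and C3ar1 peaked in macrophage-like cells, C3 in monocyte-like, Cfp in type 2 dendritic cell-like and C5ar1 in neutrophil-like cells, in both libraries.

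The chains also differed in how they divided the C1q UMIs. UMIs per chain are not corrected for length or capture, so only the same chain is compared across cells. In macrophage-like cells C1qb made up 45.3% of the UMIs of the 3 chains (95% interval 44.9 to 45.7) in Irg1+/+ cells and 49.6% (49.1 to 50.2) in those labelled Irg1-/-. The share of C1qc was 37.2% and 33.8% there. In lymphoid cells C1qb made up 51.5% (50.3 to 52.7) and 56.6% (55.3 to 57.9). The C1qb share was therefore higher in the library labelled Irg1-/- in both kinds of cell, and higher in lymphoid than in macrophage-like cells of each library, by more than the counting error.

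C3 had another distribution. Monocyte-like cells, its highest among the 12 classes with at least 50 cells, had it at 265 CPM (95% interval 248 to 284) in the Irg1+/+ library and, in the one labelled Irg1-/-, at 277 CPM (261 to 293). Neutrophil-like cells followed with 242 and 190.1 CPM, their intervals overlapping those of monocyte-like cells in the Irg1+/+ library but not in the library labelled Irg1-/-. In macrophage-like cells C3 was at 81.8 CPM (95% interval 76.0 to 88.0) in the Irg1+/+ library and, in the one labelled Irg1-/-, at 116 CPM (107 to 125). Lymphoid cells had 23.5 and 27.0 CPM. Monocyte-like cells thus had 3.24 times the macrophage-like level in the former library and 2.40 times in the latter. Thinned to 2000 UMIs, 33.3% and 34.2% of monocyte-like cells had a C3 UMI (60.9% and 57.0% before), against 3.50% and 5.17% of lymphoid cells (10.1% and 10.3% before). The few fibroblast-like cells that passed the sort, 10 and 7, were higher still, with C3 at 313 and 587 CPM, from 24 and 59 UMIs.

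Cfb, the factor that carries the protease of the alternative pathway, was close to undetected. Each library held 9 Cfb UMIs in all. Macrophage-like cells had 1 and 4 of them and monocyte-like cells 1 and 3, so no difference was detectable at this depth.

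Cfp, which encodes properdin, was highest in type 2 dendritic cell-like cells, at 413 CPM (95% interval 384 to 444) in the Irg1+/+ library and, in the one labelled Irg1-/-, at 410.2 CPM (388 to 434). Macrophage-like cells came second, at 306 CPM (95% interval 294 to 318) in the Irg1+/+ library and, in the one labelled Irg1-/-, at 315 CPM (301 to 330.1). Monocyte-like cells had 163 CPM (149 to 177) and 219.7 CPM (206 to 234), and lymphoid cells 57.5 and 67.5 CPM. Type 1 dendritic cell-like cells had 144 and 143 CPM and mature dendritic cell-like cells 62.3 and 67.6 CPM, the latter within counting error of the lymphoid level.

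The receptors had their highest levels in different classes. C3ar1, the receptor of C3a, was highest in macrophage-like cells, at 834 CPM (95% interval 815 to 853) in the Irg1+/+ library and, in the one labelled Irg1-/-, at 911 CPM (887 to 935). The mixed class came next, at 722 CPM (637 to 816) and 768 CPM (709 to 830). Its interval overlapped the macrophage-like one in the Irg1+/+ library alone. Monocyte-like cells had 309.7 and 302 CPM, eosinophil-like cells 208 and 404 CPM, neutrophil-like cells 273 and 217 CPM and lymphoid cells 77.6 and 88.8 CPM. C5ar1, the receptor of C5a, was highest in neutrophil-like cells, at 909 CPM (95% interval 769 to 1067) in the Irg1+/+ library and, in the one labelled Irg1-/-, at 899 CPM (812 to 992). In macrophage-like cells it was at 463 CPM (95% interval 449 to 478) in the Irg1+/+ library and, in the one labelled Irg1-/-, at 464 CPM (446 to 481). Levels were lower in monocyte-like cells, at 274 and 234 CPM, and in lymphoid cells, at 64.4 and 62.1 CPM. Among the 12 classes the 2 libraries gave the same class at the top for each of the 7 genes other than Cfb.

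Of the 7 members with at least 20 UMIs, 6 were at least 1.5-fold higher and 1 at least 1.5-fold lower in macrophage-like than in monocyte-like cells of the Irg1+/+ library, where 28.9% of the genes measured were higher and 12.3% lower by that much. In the library labelled Irg1-/- 5 members were higher and 1 lower, beside 25.5% and 10% of genes. The median log2 ratio of the members was 1.43 and 1.59, beside 0.21 and 0.19 over all genes. C1qa had the widest gap, with log2 ratios of 3.45 (3.29 to 3.61) and 3.10 (2.97 to 3.23). These intervals overlapped those of C1qc, which had 3.19 (3.09 to 3.29) and 2.96 (2.88 to 3.05). C3 went the other way, with -1.70 (-1.84 to -1.55) and -1.26 (-1.40 to -1.12). Cfp was the member that passed 1.5-fold in the Irg1+/+ library alone, with log2 ratios of 0.91 and 0.52.

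The cells of these classes were then ordered from monocyte-like to macrophage-like. They were put in 6 bins by the macrophage score minus the monocyte score, with the same limits in both libraries. Whether cells pass along this order was not tested. C1qa went from 80.6 CPM in the most monocyte-like bin to 1399 CPM in the most macrophage-like bin of the Irg1+/+ library. In the library labelled Irg1-/- it went from 75.2 to 1394 CPM. In the Irg1+/+ library the intervals of its first 2 bins included the lymphoid level of 90.7 CPM. In the library labelled Irg1-/- the lymphoid level was 101 CPM. There bin 1 lay below it (60.8 to 91.9) and bin 2 above it, at 121 CPM (104 to 139). From bin 3 to bin 4 C1qa went from 144 to 621 CPM and from 194 to 687 CPM. The mixed class was kept in the bins. From bin 3 to bin 4 the median score difference went from -0.54 to 0.69 in Irg1+/+ cells. From bin 5 to bin 6 it took a smaller step, from 1.35 to 2.01. The part of this uneven spacing in the rise of C1qa was not tested. C3ar1 was already at 468 and 488 CPM in bin 3 and reached 874 and 1066 CPM in bin 6. C3 ran the other way, from 294 to 56.8 CPM and from 308 to 91.5 CPM. C5ar1 went from 266 to 538 CPM and from 169 to 493 CPM. The median depth was also higher in bin 6 than in bin 1, going from 4529 to 12067 UMIs per cell among Irg1+/+ cells and from 4903 to 9249 among the others, and its part in these slopes was not tested.

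**Figure D2:**
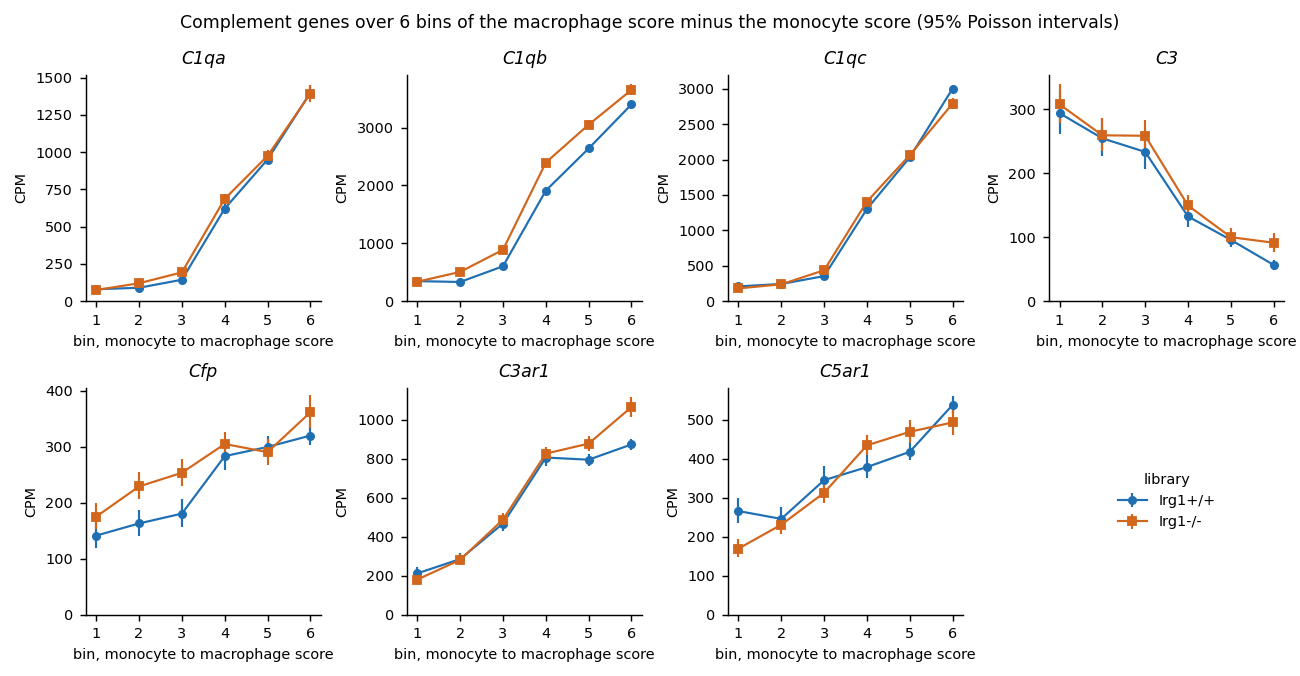
Each panel plots the CPM of 1 gene (vertical axis from 0) against 6 bins of macrophage score minus monocyte score, from the most monocyte-like (1) to the most macrophage-like (6), for both libraries with exact Poisson 95% intervals. The C1q chains, C3ar1 and C5ar1 were higher in bin 6 than in bin 1, and C3 was lower, in both libraries. The C1qb intervals of the libraries did not overlap in bins 2 to 6, where the library labelled Irg1-/- was higher, from 333 against 507 CPM in bin 2 to 3400.4 against 3652 CPM in bin 6.

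None of the 7 members measured in macrophage-like cells passed 1.5-fold between the libraries, where 4.81% of the 11153 genes with at least 20 UMIs were higher and 7.4% lower by that much in the library labelled Irg1-/-. None of the 7 did so in monocyte-like cells either, beside 5.27% higher and 7.17% lower of 9719 genes. This holds for the summed UMIs. After the lymphoid level was subtracted C3 had a log2 ratio of 0.60 in macrophage-like cells, past 1.5-fold. So were C1qa with 0.78, C1qb with 1.01 and C1qc with 0.80 in monocyte-like cells. No interval was computed for these subtracted values. Lymphoid cells were chosen as background for C1q, and whether they serve for C3 was not tested. The median log2 ratio of the members was 0.045 in macrophage-like and 0.062 in monocyte-like cells, beside -0.036 and -0.028 over all genes measured.

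In macrophage-like cells C1qa had a log2 ratio of -0.12 (-0.17 to -0.074), C1qb of 0.089 (0.062 to 0.12) and C1qc of -0.18 (-0.21 to -0.15). With cells thinned to 2000 UMIs these were -0.048 (-0.17 to 0.076), 0.16 (0.089 to 0.23) and -0.10 (-0.19 to -0.014). Lymphoid cells gave 0.15 (0.016 to 0.29), 0.25 (0.18 to 0.32) and -0.14 (-0.23 to -0.049) for the same chains. Over the whole classes C1qb was thus higher and C1qc lower in the library labelled Irg1-/- in both kinds of cell, whereas C1qa had opposite signs. In monocyte-like cells the log2 ratios were 0.23 (0.025 to 0.44) for C1qa, 0.42 (0.33 to 0.52) for C1qb and 0.043 (-0.088 to 0.17) for C1qc, the last turning to -0.13 (-0.36 to 0.097) when thinned. The C1qa interval included 0 when cells were thinned, at 0.30 (-0.06 to 0.66), and when the gate margin was doubled, at 0.12 (-0.12 to 0.37). Within the last bins of the monocyte to macrophage order the C1qa intervals of the libraries overlapped. It was at 951 CPM (917 to 985) and 975 CPM (934 to 1017) in bin 5 and at 1399 CPM (1363 to 1437) and 1394 CPM (1338 to 1451) in bin 6, which held 303 Irg1+/+ cells and 175 of those labelled Irg1-/-.

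Of the 7 members measured, C3 had the highest ratio in macrophage-like cells, 0.50 (0.35 to 0.65), beside 0.062 (-0.066 to 0.19) in monocyte-like cells. Monocyte markers moved with it. All 7 had UMIs in the macrophage-like cells of both libraries, with a summed level of 1599 and 2944 CPM, and the most abundant was Ccr2 with 475 CPM in the Irg1+/+ library and Ly6c2 with 1051 CPM in the other. Per cell and 10000 UMIs their median was 12.8 and 22.8 UMIs. Their part in the C3 difference was not tested. In bins 4 and 5 of the monocyte to macrophage order C3 was at 133 and 149.7 CPM and at 96.0 and 100.2 CPM with overlapping intervals, and in bin 6 at 56.8 CPM (49.6 to 64.6) and 91.5 CPM (77.6 to 107), which did not overlap. With macrophage-like cells thinned to 2000 UMIs the log2 ratio of C3 was 0.14 (-0.24 to 0.51), an interval that includes 0.

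Cfp had log2 ratios of 0.045 (-0.041 to 0.13) in macrophage-like, 0.43 (0.28 to 0.59) in monocyte-like and -0.011 (-0.14 to 0.12) in type 2 dendritic cell-like cells. C3ar1 was at 0.13 (0.077 to 0.18) in macrophage-like and -0.038 (-0.16 to 0.083) in monocyte-like cells. With cells thinned to 2000 UMIs the macrophage-like value was 0.035 (-0.092 to 0.16). With the gate margin doubled the monocyte-like value was -0.16 (-0.30 to -0.021), an interval that excludes 0. C5ar1 was at 0.00042 (-0.07 to 0.07) in macrophage-like and -0.23 (-0.36 to -0.094) in monocyte-like cells, the latter at -0.12 (-0.35 to 0.11) with cells thinned. In neutrophil-like cells, its highest class, it was at -0.02 (-0.29 to 0.26). Lymphoid cells gave 0.23 (0.062 to 0.40) for Cfp, 0.20 (0.049 to 0.34) for C3ar1 and -0.052 (-0.22 to 0.12) for C5ar1. All 5 B16-F10 melanocyte markers (Pmel, Mlana, Dct, Tyrp1 and Tyr) and all 6 T cell markers had UMIs in macrophage-like cells. The former summed to 172 and 75.6 CPM, with Dct the most abundant at 81.5 and 34.7 CPM, and the latter to 312 and 228 CPM, with Trac at 119.6 and 87.0 CPM. Both sums were lower in the library labelled Irg1-/-. Their part in these ratios was not tested.

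**Figure D3:**
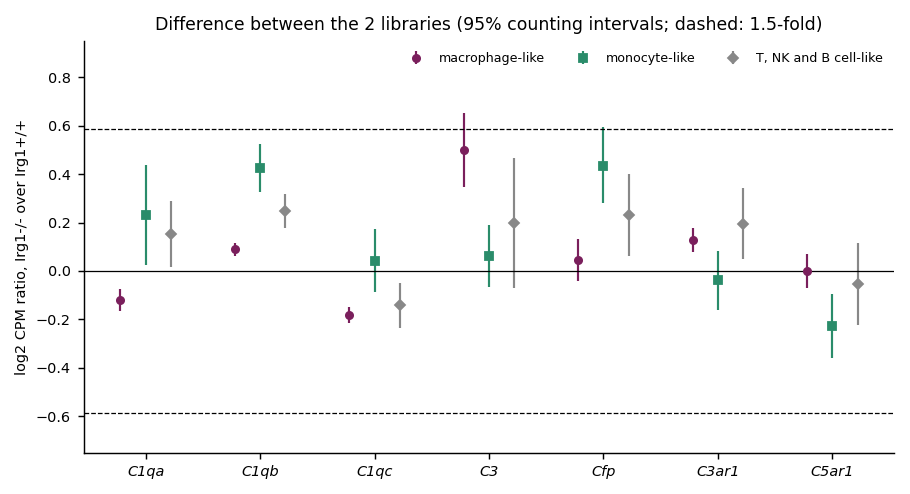
Log2 CPM ratios of the library labelled Irg1-/- over the Irg1+/+ library (vertical axis) for 7 complement genes in macrophage-like, monocyte-like and lymphoid cells, with exact 95% counting intervals and dashed lines at 1.5-fold. All points lie between the dashed lines, C3 in macrophage-like cells and Cfp in monocyte-like cells nearest to the upper one.

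Over all kept cells the ratio also carried the makeup of the libraries. C1qa had a log2 ratio of -0.16 over all cells and of 0.0031 when the class levels of the library labelled Irg1-/- were combined at the class shares of UMIs of the Irg1+/+ library. For C1qc these values were -0.28 and -0.11, for C3 0.46 and 0.30 and for Cfp 0.24 and 0.16. The ratio was farther from 0 at fixed shares for C1qb, with 0.03 and 0.17, and for C3ar1, with 0.042 and 0.12, and about the same for C5ar1, with -0.10 and -0.10. The Irg1+/+ class levels were also combined at the shares of the library labelled Irg1-/-. The ratio was then 0.0097 for C1qa, 0.16 for C1qb, -0.12 for C1qc and 0.22 for C3. It was 0.17 for Cfp, 0.099 for C3ar1 and -0.13 for C5ar1. Macrophage-like cells made up 11.8% (11.0 to 12.6) and 10.6% (9.80 to 11.4) of kept cells, and monocyte-like cells 9.40% (8.69 to 10.2) and 13.1% (12.3 to 14.0).

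Within the macrophage-like cells the levels varied with the program of the cells. Subsets were gated by markers of 6 programs, again without complement genes. C1qa was lowest in Vegfa+ cells (markers of hypoxia and angiogenesis such as Vegfa, Slc2a1 and Hmox1; 131 and 68 cells), at 557 CPM (518 to 598) and 526 CPM (465 to 592). It was highest in cycling cells (Mki67, Top2a and others; 78 and 26 cells), at 1412 CPM (1357 to 1469) and 1549.6 CPM (1427 to 1679.7), with Lyve1+ cells (Lyve1, Cbr2, Cd163, Folr2, Timd4 and F13a1; 26 and 40 cells) close behind at 1402 and 1352 CPM. C1qb and C1qc were lowest in Vegfa+ cells too, at 1792 and 1917 CPM and 1386 and 1199 CPM. The depth of the subsets differed, from medians of 8242 and 6478.5 UMIs in Vegfa+ cells to 21275 and 12922.5 in cycling cells.

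C3 was highest in other subsets. It was at 197 CPM (170.2 to 227) and 145 CPM (123 to 170.5) in MHC class II high cells (109 and 108 cells), and at 167 and 193 CPM in cells of the interferon-induced program (markers such as Cxcl9, Cxcl10, Gbp2, Gbp5, Iigp1 and Irf1; 48 and 72 cells). In cycling cells it was at 31.8 and 65.5 CPM, in Lyve1+ cells at 25.5 and 75.7 CPM and in Ccl24+ Mgl2+ cells at 29.6 and 41.8 CPM. The MHC class II high cells also carried more monocyte marker RNA than the cycling cells.

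The sign of the difference between libraries in C3 varied among subsets. Its log2 ratio was -0.44 (-0.76 to -0.12) in MHC class II high cells, 1.52 (0.51 to 2.75) in Lyve1+ cells, 1.06 (0.30 to 1.75) in cycling cells and 0.68 (0.42 to 0.96) in the cells of none of these programs. Of all genes measured 14.5% were at least 1.5-fold higher in Lyve1+ cells, 10.6% in cycling cells and 5.85% in the cells of no program. The values in Lyve1+ cells rest on 10 and 33 C3 UMIs. Monocyte markers were also higher there in the library labelled Irg1-/-, at 960.4 and 3036 CPM, as in cycling cells (805 and 1240 CPM), in MHC class II high cells (2737 and 3902 CPM) and in the cells of no program (1695 and 2953 CPM), and their part was not tested. The cells of no program were the largest group, with 307 and 286 cells, in which 138 and 139 lay near a limit.

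C3ar1 was highest in Lyve1+ cells of both libraries, at 1162 and 991 CPM, and in the Irg1+/+ library lowest in Ccl24+ Mgl2+ cells, at 623 CPM, whereas in the other library cycling cells were lowest, at 642 CPM. C5ar1 had its highest value in Lyve1+ cells too, clear of the other subsets in the Irg1+/+ library alone, at 787 CPM (701 to 879.6) and 535 CPM (468 to 608). Cfp ranged from 259.5 CPM in cells of the interferon-induced program to 326 CPM in cycling cells of the Irg1+/+ library, and from 271 CPM in Vegfa+ to 459.7 CPM in the 13 Ccl24+ Mgl2+ cells of the library labelled Irg1-/-.

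**Figure D4:**
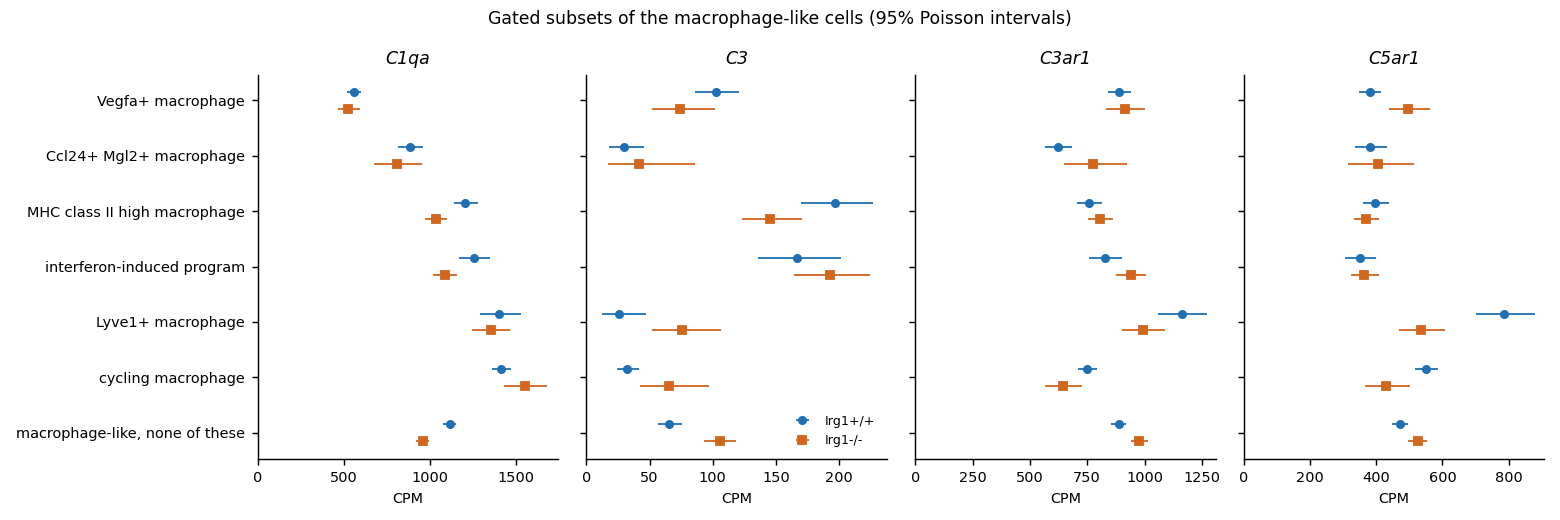
CPM (horizontal axis from 0) of C1qa, C3, C3ar1 and C5ar1 in 6 gated subsets of the macrophage-like cells and in the cells of none of them, for the Irg1+/+ library (circles) and the library labelled Irg1-/- (squares), with exact Poisson 95% intervals. C1qa is lowest in Vegfa+ cells, and C3 is highest in MHC class II high and interferon-induced cells, in both libraries.

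The macrophage-like cells, and the monocyte-like cells likewise, were next put into low, middle and high groups of equal size by interferon score, with the same limits in both libraries. In macrophage-like cells C3 went from 52.8 through 75.9 to 113 CPM in the Irg1+/+ library and from 81.1 through 84.3 to 149 CPM in the other. C1qa went from 888 through 1085 to 1299 CPM and from 648 through 874 to 1240.3 CPM. C5ar1 ran the other way, from 506 to 419 CPM and from 608 to 404 CPM between the low and the high group. The high group was also deeper, with medians of 12786.5 and 11393 UMIs per cell against 6401 and 5909.5 in the low group, and 387 of the 1352 macrophage-like cells lay within 0.1 of a limit. The part of depth was not tested.

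In monocyte-like cells the interferon score went with fewer C5ar1 UMIs, 334 CPM in the low and 179 CPM in the high group of the Irg1+/+ library and 349 and 168 CPM in the other. Median depth was 4798 and 5555 UMIs per cell in the low and high groups of the former and 4594 and 5512.5 of the latter, and 345 of the 1351 monocyte-like cells lay within 0.1 of a limit. C3 was at 207 CPM (179 to 237) in the low and 338 CPM (311 to 365) in the high group of the library labelled Irg1-/-, whereas the Irg1+/+ library had 256 CPM (228 to 287) and 284 CPM (249 to 322), with overlapping intervals. Cfp was at 171 and 135 CPM in the low and high groups of the Irg1+/+ library and at 280.3 and 167 CPM in the other. The high group held 147 of the 591 Irg1+/+ monocyte-like cells and 304 of the 760 labelled Irg1-/-. Within the low, middle and high groups the log2 ratios of C5ar1 between the libraries were 0.064 (-0.15 to 0.28), -0.22 (-0.44 to 0.00029) and -0.098 (-0.38 to 0.20).

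Between the libraries some genes were past 1.5-fold within these groups, though none of the 7 was over either whole class. In the low group of macrophage-like cells C1qc had a log2 ratio of -0.60 (-0.69 to -0.52) and C3 of 0.62 (0.22 to 1.02). Of all genes measured there 11.9% were lower and 7.73% higher by 1.5-fold. C1qb, higher in the library labelled Irg1-/- over the whole class, had the opposite sign in this group, with -0.23 (-0.30 to -0.16), and in MHC class II high cells, with -0.11 (-0.18 to -0.035). C1qa was also lower in the low group, at -0.45 (-0.58 to -0.33), whereas in the high group C1qa was at -0.067 (-0.13 to -0.0017) and C1qc at -0.10 (-0.15 to -0.056). In monocyte-like cells the log2 ratio of C1qa was at 0.65 (0.26 to 1.07) in the high group, C1qb at 0.60 (0.43 to 0.77) in the middle group and Cfp at 0.71 (0.44 to 0.98) in the low group. Of all genes measured 7.81%, 8.1% and 8.63% were at least 1.5-fold higher in these groups. The ratios of a gene in different groups were not tested against each other.

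**Figure D5:**
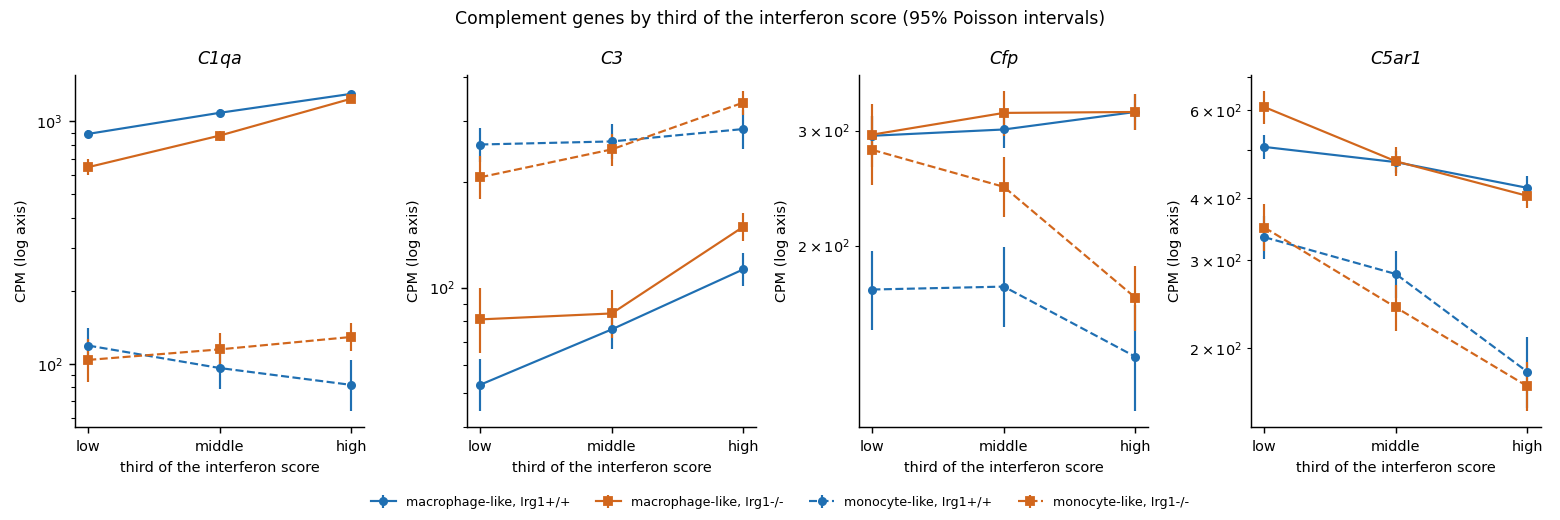
CPM (log axis) of C1qa, C3, Cfp and C5ar1 in the low, middle and high group of the interferon score, for macrophage-like cells (solid lines) and monocyte-like cells (dashed lines) of both libraries, with exact Poisson 95% intervals. C5ar1 is lower in the high group in all 4 groups of cells, and C3 and C1qa are higher there in macrophage-like cells of both libraries.

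Of 51 genes listed for the complement system, 50 were analysed and 26 had at least 20 UMIs in macrophage-like and monocyte-like cells together. Among the 25 measured in macrophage-like cells, 5 were at least 1.5-fold higher in the library labelled Irg1-/- and none lower. These were C4b, C6, Fcna, Serping1 and Vsig4. Vsig4, with 0 and 60 UMIs, was counted as measured only through the library in which it was high, C6 and Serping1 had under 20 UMIs in either library with an interval of the log2 ratio that included 0 for Serping1, and of the UMIs of C4b and Fcna in the library labelled Irg1-/- 96 of 350 and 64 of 104 lay in 5 cells. Among the 18 genes measured in monocyte-like cells 2 were higher and 1 lower. Over all genes measured the shares were 4.81% higher and 7.4% lower in macrophage-like and 5.27% higher and 7.17% lower in monocyte-like cells. The median log2 ratio of the list was 0.11 in macrophage-like and 0.052 in monocyte-like cells, beside -0.036 and -0.028 over all genes measured. These counts and medians describe the 2 libraries, and with genes that few cells decide nothing about the list is read from them.

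Of 9 classical pathway genes analysed, 6 were measured. C4b, which encodes a form of C4, was at 31.9 and 58.6 CPM in macrophage-like cells (log2 ratio 0.88, 0.65 to 1.11) and at 9.69 and 23.9 CPM in monocyte-like cells (1.29, 0.71 to 1.93). Its near-identical copy C4a was not analysed here, and since reads of the copies may not be told apart the C4b values are uncertain. In the Irg1+/+ library 49 of the 281 C4b UMIs of macrophage-like cells came from 5 cells. In monocyte-like cells 10 of 31 C4b UMIs in the Irg1+/+ library and 44 of 101 in the other came from 5 cells. C1ra, a protease of the C1 complex, was at 30.2 and 32.7 CPM in macrophage-like cells, and C2, the protease that joins C4b, at 4.09 and 3.02 CPM. Of the lectin pathway, Fcna (ficolin A) was at 11.3 and 17.4 CPM (0.63, 0.22 to 1.04) in macrophage-like cells. Colec12, a collectin receptor, was past 1.5-fold in monocyte-like cells, at 2.19 and 6.16 CPM, from 7 and 26 UMIs. Of the 26 UMIs, 13 came from 5 cells.

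Terminal components were almost absent from macrophage-like and monocyte-like cells, where 1 of 7 was measured. Hc, another terminal component, had 49 UMIs in the Irg1+/+ library and 25 in the other. It was highest in mature dendritic cell-like cells, with 5.19 and 7.36 CPM. C6 had 5 and 16 UMIs in macrophage-like cells, in 4 cells of each library. Among the regulators, Serping1, the C1 inhibitor, had 12 and 16 UMIs in macrophage-like cells. Cd55, which speeds the decay of convertases, was highest in B cell-like cells, with 327 and 343 CPM, and at 2.96 and 3.85 CPM in macrophage-like cells. Clu (clusterin) was highest in mature dendritic cell-like cells, with 111 and 91.6 CPM.

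Several of the other receptors also serve in cell adhesion. Itgam and Itgb2, the chains of complement receptor CR3, were at 698 and 806 CPM and at 799 and 884 CPM in macrophage-like cells, with log2 ratios of 0.21 and 0.15, and with -0.19 and -0.14 in monocyte-like cells. Itgax, the alpha chain of CR4, was the gene past 1.5-fold lower in monocyte-like cells, at 159 and 98.0 CPM (-0.70, -0.89 to -0.51). Cd93, once described as a C1q receptor, was at 530.2 and 505 CPM in macrophage-like and 253 and 185 CPM in monocyte-like cells. C5ar2, the second C5a receptor, was at 16.6 and 15.2 CPM in macrophage-like cells and, like C5ar1, highest in neutrophil-like cells, with 42.4 and 24.9 CPM. The neutrophil-like class held 165015 and 441792 UMIs in all, so its C5ar2 values rest on few UMIs. Vsig4, a receptor for C3 fragments on resident macrophages, had 0 UMIs in macrophage-like cells of the Irg1+/+ library, where 3 UMIs would be 0.341 CPM. Macrophage-like cells of the other library had 60 UMIs, 10.1 CPM. All 60 came from 5 of the 613 cells, and these cells also held 20 of the 104 Fcna UMIs.

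Genes with the pattern most like each member across the 12 classes were found by Pearson r of log2(CPM + 1), averaged over both libraries, among 10737 genes. The classes share depth and free RNA of their library, and the values are a description. The C1q chains were each most like the other two chains (r from 0.966 to 0.981), followed by Ms4a7 for C1qa (0.936), Vat1 for C1qb (0.938) and Stab1 for C1qc (0.94). Ms4a7 is itself one of the markers of the macrophage gate. C3 was most like Gm5150 (0.959), Cd14 (0.946), the co-receptor for lipopolysaccharide, and Prdx5 (0.945). Cfp was most like Eps8 (0.885), Dock4 (0.864) and Dab2 (0.842), C3ar1 most like Rgl1 (0.949), Slc7a8 (0.929) and Mdm2 (0.926), and C5ar1 most like Cstb (0.948), Ninj1 (0.947) and Plin2 (0.945).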

How the data were processed

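Cd45+ cells of 1 Irg1+/+ and 1 Irg1-/- pool of 3 B16-F10 tumours were profiled by 3′ single-cell RNA-seq. The authors deposited raw UMI counts per gene and cell. By the study's methods and the submitters' processing notes, fastp trimmed the reads, UMI-tools found the cell barcodes and STAR aligned to the Ensembl 100 assembly (GRCm38), after base calling in CASAVA 1.8. Whether counting used strand was not given in the sources used here. No column was left unmapped (0).

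A cell was used if it had more than 200 genes and mitochondrial UMIs below 10%, and its mitochondrial genes were dropped from the sums. Each cell was scored for each class as the mean over its markers of the z score of log-normalized counts, limited to 3, with at least 2 markers detected. It was put in the class with the highest score if that was at least 0.5 and 0.25 above the next. The members and lists were chosen with earlier results of these data known, and the limits of the gates were set on these data. No doublet caller was run, and cells scoring at least 1 for 2 lineages (155 and 133) were left out. UMIs were summed per class and library. Ratios used 0.5 UMIs added to each sum, with conditional binomial intervals (scipy 1.17.1). Genes with at least 20 UMIs in the class over both libraries were counted as measured, at a threshold of 1.5-fold. Low counts therefore limit genes such as Cfb, C6, Serping1 and Vsig4. Named were the 8 members, Acod1, markers, listed complement genes with at least 20 UMIs and the 3 genes most like each member (genes with at least 200 UMIs). Some genes of these lists are not reported here. The scripts were tested on simulated counts. Alternatives included TMM factors (edgeR 4.0.16, R 4.3.3), thinning to 2000 UMIs and other gates. Gene positions came from GENCODE M21, in which 31094 of 31240 identifiers without mitochondrial genes were found. Promoters came from the RefSeq table used here, which listed 6 of the 8 members, without C1qa and Cfb.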

Additional observations from a re-analysis of the deposited data

Results flagged for a closer look

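C1qa had log2 ratios of opposite sign in the 2 main classes, -0.12 in macrophage-like and 0.23 in monocyte-like cells (library labelled Irg1-/- over Irg1+/+). With 1 library per genotype this difference was not tested. Over the alternative settings the signs stayed, but the macrophage-like value was -0.048 (-0.17 to 0.076) with cells thinned to 2000 UMIs. The monocyte-like value was 0.12 (-0.12 to 0.37) with the gate margin doubled, and both intervals include 0. Within the classes the sign varied. Cycling cells alone among the macrophage-like subsets were positive, at 0.13 (0.0019 to 0.26). The low interferon group alone among monocyte-like cells was negative, at -0.19 (-0.58 to 0.18). Cells that no gate took also carried C1qa, at 364.8 CPM in the Irg1+/+ library and 416.2 CPM in the library labelled Irg1-/-, against 90.7 and 100.9 CPM in lymphoid cells. Of these UMIs, 43.1% and 44.2% came from the 350 and 251 cells whose highest score was that of macrophages.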

How the results depend on the processing

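No paired analysis was possible because each genotype has 1 library, so the groups share only 1 replicate number. Limits are those of 1 library per genotype: intervals cover counting error, not mice. Of the 14 log2 ratios (7 genes in macrophage-like and monocyte-like cells), all moved by less than their counting interval with under 5% mitochondrial UMIs, with TMM scaling, with cells of 2 lineages kept, and without the barcodes found in both libraries, an alternative chosen after seeing the data. Thinning each cell to 2000 UMIs moved 8, in macrophage-like cells C1qa to -0.048, C1qb to 0.16, C1qc to -0.10, C3 to 0.14, C3ar1 to 0.035 and C5ar1 to 0.10, and in monocyte-like cells C1qc to -0.13 and C3 to 0.20. Thinned cells count equally, whereas in summed UMIs deep cells weigh more. Of the 28 CPM levels behind these ratios thinning moved 15 beyond their counting interval, by at most 1.22-fold, among them Irg1+/+ macrophage-like C1qa from 1101 to 907, C1qc from 2350.2 to 1919 and C3 from 81.8 to 97.8 CPM, whereas keeping cells with markers of 2 lineages moved none. Subtracting the lymphoid level moved C1qa to 0.78, C1qb to 1.01 and C1qc to 0.80 in monocyte-like cells, where little was left after subtraction. In macrophage-like cells the macrophage gate without Apoe gave 0.12 for C1qb and -0.14 for C1qc. Averaging CPM over cells gave -0.088 for Cfp and 0.053 for C3ar1 there. The doubled gate margin gave -0.16 (-0.30 to -0.021) for C3ar1 in monocyte-like cells, an interval that excludes 0. Of the other ratios whose interval excludes 0, those that moved by over 1.5 times, all in monocyte-like cells, were C5ar1, at -0.12 when thinned and -0.35 with the margin doubled, and C1qa, at 0.12 with the margin doubled. The signs of Cfp and C5ar1 in macrophage-like and of C1qc and C3ar1 in monocyte-like cells, whose main intervals include 0, changed with the setting. The cause of these shifts was not tested. Counting every gene with at least 1 UMI raised the genes past 1.5-fold from 1362 to 5296 in macrophage-like and from 1209 to 5048 in monocyte-like cells, with more genes counted as measured.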
